A study of Rattus norvegicus with 6 samples.

Results

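The SLC39 family, also called ZIP, is the set of membrane proteins that carry zinc, and in some members iron or manganese, into the cytosol from outside the cell or from organelles. The 10 genes described here were Slc39a1, Slc39a3, Slc39a4, Slc39a5, Slc39a6, Slc39a7, Slc39a8, Slc39a10, Slc39a13 and Slc39a14. They were followed through all non-control probes whose RefSeq accession maps to one of those symbols. This gave 19 of the 61657 non-control probes of the array, for 8 of the 10 genes, among 15284 genes named in all. No probe was matched to Slc39a10, a plasma membrane importer, or to Slc39a13, an importer of the early secretory pathway, and their mRNA was not analysed here.

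Liver RNA came from 3 male Sprague-Dawley (Crl:CD(SD)) rats given nitrilotriacetic acid trisodium monohydrate (NTA) at 1000 mg/kg/day and from 3 male Sprague-Dawley rats given vehicle, with 1 one-colour Agilent array per rat. All were bought at 5 weeks of age, and age at sampling is not given in the labels. The labels give the vehicle as purified water in one field and corn oil in another, and the time as 28 days in one and 9 weeks in another, and this was not settled here. Each treatment had 3 animals by the labels, and an array is therefore read as a single rat.

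Zinc enters hepatocytes through SLC39 proteins and leaves through the SLC30 exporters, and metallothioneins bind it in the cytosol. The transcription factor MTF1 senses cytosolic zinc and switches on metallothionein genes through metal response elements, while several SLC39 genes are instead adjusted through RNA stability or protein turnover. NTA is a chelator that binds zinc, iron, calcium and other metal ions, so the comparison asks whether liver mRNA for the importers differed in animals that took it.

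Promoter sequence was set beside the importers because metal response elements are the best known route from zinc to mRNA. In the RefSeq promoter table of build GRCr8, 8 of the 10 importers had an entry; Slc39a4 and Slc39a14 had none. The core of the element was searched as TGCACNC and TGCGCNC on both strands of the 250 bases before each listed gene start. Mt1 is printed as a promoter of a classic zinc-induced gene, Slc39a5 as the importer with the lowest p, and Slc39a7 as the importer with the most matches. Each is written 5′ to 3′ along the gene, with matches on either strand in capitals.
Mt1, chr19:10832976-10833225, minus strand: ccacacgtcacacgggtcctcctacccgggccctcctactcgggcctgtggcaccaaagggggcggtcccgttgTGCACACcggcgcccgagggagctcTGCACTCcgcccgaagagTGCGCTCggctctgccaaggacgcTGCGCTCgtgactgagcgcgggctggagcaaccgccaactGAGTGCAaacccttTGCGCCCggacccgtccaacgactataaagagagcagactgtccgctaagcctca
Slc39a5, chr7:1414785-1415034, minus strand: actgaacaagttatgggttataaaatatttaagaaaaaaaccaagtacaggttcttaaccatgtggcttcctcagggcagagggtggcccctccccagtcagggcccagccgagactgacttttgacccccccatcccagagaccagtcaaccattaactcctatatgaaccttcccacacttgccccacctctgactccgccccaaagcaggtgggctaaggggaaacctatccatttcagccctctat
Slc39a7, chr20:4824809-4825058, plus strand: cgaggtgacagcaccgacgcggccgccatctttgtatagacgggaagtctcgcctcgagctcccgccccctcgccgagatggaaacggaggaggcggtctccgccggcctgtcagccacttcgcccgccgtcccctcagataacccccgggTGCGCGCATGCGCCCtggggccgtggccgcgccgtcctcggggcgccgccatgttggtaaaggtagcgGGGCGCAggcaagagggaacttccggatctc

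The Mt1 window held 6 matches, the Slc39a5 window 0 and the Slc39a7 window 4, of which 2 overlap and 1 more directly adjoins them. A second listed start of Slc39a7 gave the same 4 matches. Slc39a13 had 2 matches and Slc39a1 had 1, and Slc39a3, Slc39a6, Slc39a8 and Slc39a10 had 0. Of all 33469 promoter windows of that length, 20.6% held at least 1 match, against 3 of the 8 importers with an entry. A match describes letters in a window and not a working site.

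Values are log2 processed signal minus the array's 75th percentile, so 0 is the level of that percentile and each unit is a doubling. Levels of different probes are not compared, because probes differ in how well they bind. The test took probes that cleared background well on each of the 3 arrays of at least 1 group, which 17 of the 19 importer probes did, at least 1 for each of the 8 genes. Those 17 cleared it on all 6 arrays, and no importer probe was saturated or flagged as non-uniform on any array. Arrays were alike in depth of signal, with 62.4% to 64.5% of probes well above background. All NTA arrays shared 1 slide, which held no vehicle array, and an effect of the slide cannot be told apart from one of NTA. Vehicle replicate 3 alone had a separate slide and scan day.

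No importer passed the test. Of the 17 tested probes, 0 had a limma Benjamini-Hochberg adjusted p under 0.05 and 1 had an unadjusted p under 0.05, which is 5.88% of them. Over all 38168 tested probes, 0.0341% passed at the adjusted threshold and 7.38% had an unadjusted p under 0.05, so the importers' share lay near the background. By direction the background was 3.65% higher and 3.73% lower with NTA. The groups did not overlap for 1 importer probe, again 5.88%, against 13.4% of all tested probes (5.55% with NTA higher, 7.83% with NTA lower). Log2 differences, NTA minus vehicle, had a median of −0.0089 over the importer probes and −0.025 over all tested probes. The median absolute log2 difference was 0.062 for the importers and 0.13 for all, and the median SE was 0.12 and 0.15. The importers' median absolute difference was thus smaller than that of all tested probes, as was their median SE. Slc39a5 and Slc39a4 had the largest differences among them.

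**Figure D1:**
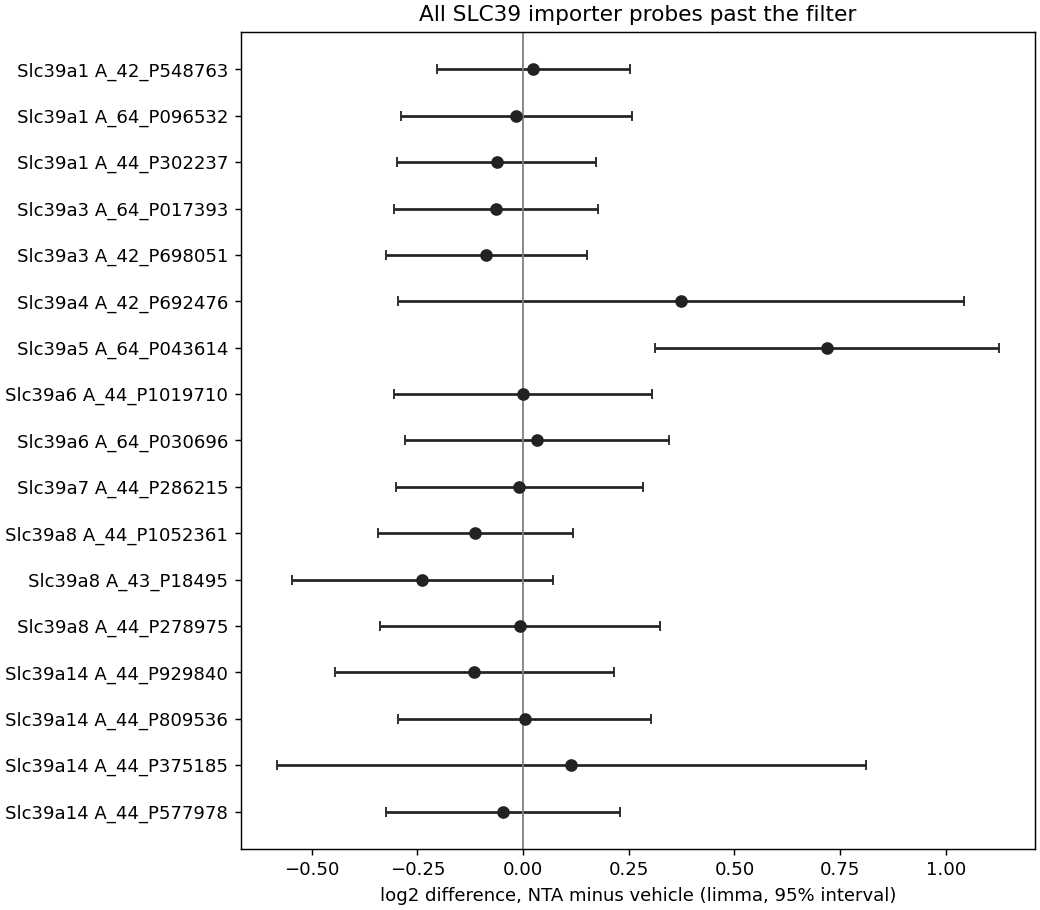
Log2 difference, NTA minus vehicle, of each SLC39 probe past the filter, with limma's 95% interval (n = 3 rats per group). Only the Slc39a5 interval, 0.31 to 1.12, excludes 0 before adjustment; the Slc39a4 interval runs from −0.30 to 1.04.

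Slc39a5 encodes an importer of polarised cells, found in mouse on the basolateral side of intestinal and pancreatic acinar cells. Its bright probe, A_64_P043614, read −0.95, −0.53 and −1.03 in the NTA rats, against −1.43, −1.48 and −1.75 in the vehicle rats. The lowest of the NTA rats was above the highest of the vehicle rats, so the groups did not overlap. In the scanner's processed signal the same spots gave 271.7, 358.3 and 273.0 in NTA rats, against 192.1, 165.9 and 157.1 in vehicle rats. Means were −0.84 ± 0.27 with NTA and −1.55 ± 0.17 with vehicle (SD, n = 3 each), a 1.64-fold difference (log2 0.72, SE 0.17, 95% interval 0.31 to 1.12; limma, Benjamini-Hochberg adjusted p = 0.51). Its limma p before adjustment was 0.0045, and 0.875% of all tested probes had one as low. With normexp background correction, which adds an offset before the log, the log2 difference was 0.43. Leaving out 1 array at a time gave 0.56 to 0.82.

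The other 2 Slc39a5 probes were too near background to measure a difference. A_44_P389963 read −5.64, −7.55 and −5.82 in NTA rats, none well above background, and −4.80, −5.89 and −4.65 in vehicle rats, 2 of them well above background. A_44_P507755 read −6.12, −5.85 and −5.58 in NTA rats and −5.87, −6.16 and −4.31 in vehicle rats, with 0 NTA arrays and 1 vehicle array well above background. The lowest signal counted as well above background lay between −5.45 and −5.17 on these arrays, so both probes sat at the edge of detection. For A_44_P507755 no bound on a fold was obtained. The vehicle mean of A_44_P389963 lay 1.22-fold above that lowest signal on NTA arrays. Fitted without the filter, A_44_P389963 had a log2 difference of −1.22 (SE 0.61) and A_44_P507755 of −0.40 (SE 0.50). Both were opposite in direction to the bright probe, with wide errors. The Slc39a5 difference therefore rests on 1 probe.

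**Figure D2:**
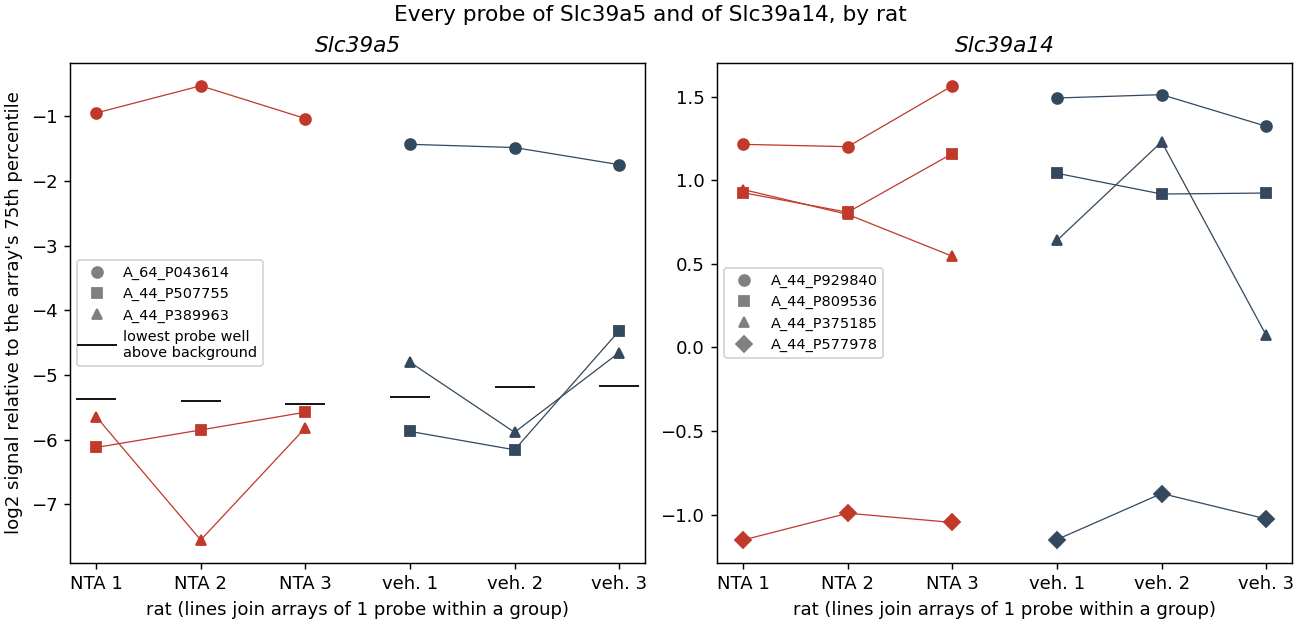
Log2 signal of each rat, with the 75th percentile of its array at 0, for the 3 probes of Slc39a5 (left; black dashes mark the lowest probe well above background on each array) and the 4 probes of Slc39a14 (right). The bright Slc39a5 probe is higher in all NTA rats while its other probes lie near the background; A_44_P375185 of Slc39a14 spreads from 0.07 to 1.23 among vehicle rats, more than the other Slc39a14 probes.

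Markers of other cell types were read beside Slc39a5, since pancreas and gut also express it. Of 11 pancreatic acinar markers, 5 were not past the filter (Prss1, Cela1, Cpa1, Pnlip and Ptf1a), and the summed signal of the other 6 was 1.07 to 1.27 times the 75th percentile on NTA arrays and 0.963 to 1.46 times on vehicle arrays. Of 7 enterocyte markers with a probe, Vil1 was not past the filter, and the summed signal of the other 6 was 400 to 498 on NTA arrays and 433 to 493 on vehicle arrays. Most of that sum is Apoa4, named after its values were seen, which rat liver also makes. Hepatocyte markers were all 12 past the filter and summed to 5371 to 5773 on NTA arrays, below the 6197 to 6583 on vehicle arrays. Sinusoidal endothelium markers, 7 genes, summed to 78.8 to 87.6 with NTA and 61.1 to 73.6 with vehicle, and erythroid markers, 7 genes, to 710 to 1120 with NTA and 578 to 640 with vehicle. Such sums lean on their brightest probes. Named after their values were seen, Ttr and Tf among hepatocyte markers and Kdr among endothelial ones had overlapping groups on their brightest probes. How often sums over other gene sets separate the groups was not examined. The part of these marker shifts in the importer values was not tested, and in whole liver, fewer cells of a type and less RNA per cell cannot be told apart.

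The remaining marker lists were read by the median log2 difference of their genes past the filter. It was 0.35 for 9 Kupffer cell and macrophage genes, 0.75 for 3 B and plasma cell genes and 0.09 for 5 T and NK cell genes. It was −0.12 for 7 stellate cell and fibroblast genes, 0.13 for 7 biliary genes and −0.22 for 3 adipocyte genes, and −0.15, 0.52 and 0.53 for the hepatocyte, endothelial and erythroid genes above. For the acinar and enterocyte genes it was −0.13 and −0.19. In none of the 11 lists did a gene pass limma's adjusted threshold. An unadjusted p under 0.05 was found for 17 of the 72 marker genes past the filter, 14 higher and 3 lower with NTA, which is 23.6% against 7.38% of all tested probes. The markers were counted at 1 probe per gene, and the background over every tested probe. Higher were 5 of 7 endothelial, 4 of 7 erythroid, 3 of 3 B and plasma cell, 1 macrophage and 1 adipocyte gene. Lower were 2 hepatocyte genes and 1 enterocyte gene. The stellate, biliary, T and NK, and acinar lists had 0. The adipocyte median hides Fabp4, a fatty acid binding protein also made by endothelium and macrophages, which is named after its values were seen. It read −1.64, −2.00 and −2.40 in NTA rats, against −4.91, −4.28 and −4.59 in vehicle rats, with no overlap. Its log2 difference was 2.58 (SE 0.24; limma, Benjamini-Hochberg adjusted p = 0.060), while the other 2 adipocyte genes were below 0.

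Slc39a4 encodes the importer that takes up dietary zinc in the intestine, and its loss in humans causes acrodermatitis enteropathica. Its only probe, A_42_P692476, read 4.31, 5.03 and 4.87 in NTA rats, against 3.85, 4.60 and 4.65 in vehicle rats. The groups overlapped, and the first rat of each group was the lowest of its group. The means were 4.74 ± 0.38 with NTA and 4.36 ± 0.45 with vehicle (SD, n = 3 each). The log2 difference was 0.37 (SE 0.28, 95% interval −0.30 to 1.04; limma, Benjamini-Hochberg adjusted p = 0.81), which leaves room for anything from 0.815-fold to 2.06-fold. Without vehicle replicate 1 it was 0.11 and without NTA replicate 1 it was 0.59, so those rats set much of the value. Slc39a4 varied more between rats of a group than most genes: 12.6% of tested probes had a larger within-group SD than its 0.41. On the same arrays, named after the values were seen, Mt1 was highest in vehicle replicate 1, at 9.63, against 9.31 and 9.49 in the other vehicle rats. In NTA rats Mt1 read 9.30, 9.33 and 9.13, and there replicate 2 was the highest for both Mt1 and Slc39a4. A relation between the genes was not tested.

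The plasma membrane importers Slc39a1 and Slc39a3, which are expressed in most tissues, differed little between rats. Slc39a1 on its brightest probe, A_42_P548763, read 4.35, 4.34 and 4.37 in NTA rats, against 4.35, 4.26 and 4.38 in vehicle rats. The log2 difference was 0.02 (SE 0.10), with a 95% interval from 0.868-fold to 1.19-fold, and its other 2 probes gave −0.016 and −0.06. Of all tested probes, 98.5% had a larger within-group SD than this Slc39a1 probe. Slc39a3 on A_64_P017393 read 3.32, 3.42 and 3.29 in NTA rats, against 3.33, 3.41 and 3.47 in vehicle rats. Its log2 difference was −0.06 (SE 0.10), from 0.81-fold to 1.13-fold, and A_42_P698051 gave −0.09. For both genes the groups overlapped on every probe, and adjusted p in limma lay between 0.875 and 0.985.

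**Figure D3:**
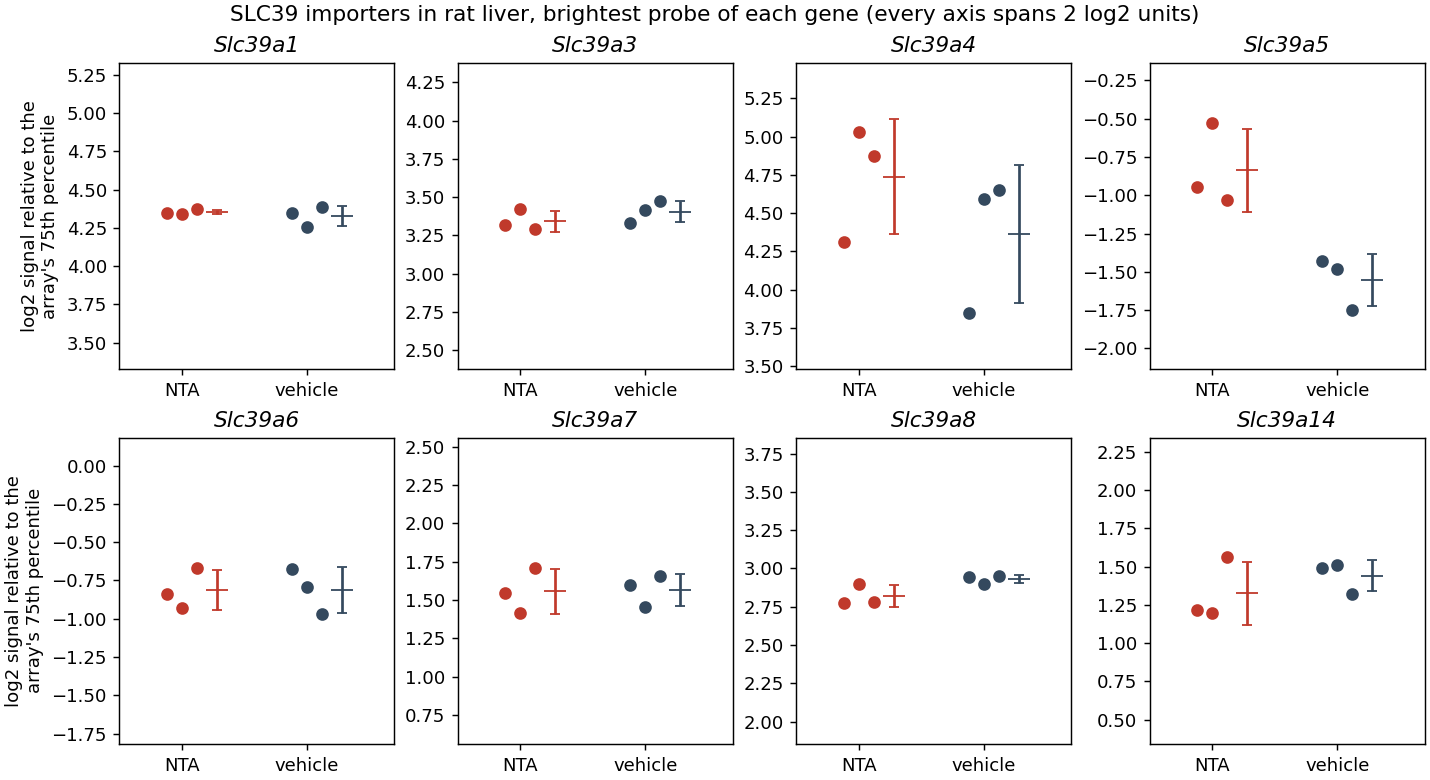
Log2 signal, with the 75th percentile of the array at 0, for the brightest probe of each SLC39 importer, with 1 point per rat and the mean ± SD beside the points (n = 3 each); every panel spans 2 log2 units, and levels are not comparable between panels. Points of the groups overlap in every panel except Slc39a5, and Slc39a4 has the widest spread within groups.

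Slc39a6, the estrogen-regulated LIV-1 protein of human breast cancer cells, and Slc39a7, which releases zinc from the endoplasmic reticulum, both had log2 differences within 0.01 of 0 on their brightest probes. The brighter Slc39a6 probe, A_44_P1019710, read −0.84, −0.93 and −0.67 in NTA rats, against −0.68, −0.79 and −0.97 in vehicle rats. Its log2 difference was −0.0009 (SE 0.13, 95% interval −0.31 to 0.30), and the second probe, A_64_P030696, gave 0.03. Slc39a7 had 1 probe, A_44_P286215, which read 1.55, 1.42 and 1.71 in NTA rats, against 1.60, 1.45 and 1.66 in vehicle rats. Its log2 difference was −0.0089 (SE 0.12), from 0.812-fold to 1.22-fold. Rats within each group differed more than the group means did. The sign of both values changed under other settings.

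Slc39a8 and Slc39a14 carry manganese as well as zinc, and Slc39a14 also carries iron that is not bound to transferrin and is induced by interleukin 6 in mouse liver. Slc39a8 on its brightest probe, A_44_P1052361, read 2.77, 2.90 and 2.78 in NTA rats, against 2.94, 2.90 and 2.95 in vehicle rats. NTA replicate 2, at 2.900, lay just above vehicle replicate 2, at 2.899, and was the only overlap. The log2 difference was −0.11 (SE 0.10, 95% interval −0.34 to 0.12; limma, Benjamini-Hochberg adjusted p = 0.84). The other 2 Slc39a8 probes gave −0.24 for A_43_P18495, the lowest among importer probes past the filter, and −0.0082 (SE 0.14) for A_44_P278975. None of the 3 passed. A_44_P278975 had no steady sign, at 0.12 without NTA replicate 3. Without vehicle replicate 3, the array with a separate slide and scan day, A_43_P18495 was at −0.35 (limma, Benjamini-Hochberg adjusted p = 0.58).

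Slc39a14 had 4 probes, and they disagreed in spread. The brightest, A_44_P929840, read 1.21, 1.20 and 1.56 in NTA rats, against 1.49, 1.51 and 1.32 in vehicle rats, with the groups overlapping. Its log2 difference was −0.12 (SE 0.14), or −0.23 without NTA replicate 3, −0.05 without NTA replicate 2 and −0.06 without NTA replicate 1, and A_44_P809536 and A_44_P577978 gave 0.0035 and −0.05. The fourth, A_44_P375185, read 0.94, 0.80 and 0.55 in NTA rats, against 0.64, 1.23 and 0.07 in vehicle rats. Its within-group SD was 0.43, against 0.11 to 0.16 for the other 3, although all 4 are matched to the same accession. Its log2 difference of 0.11 (SE 0.29) had a 95% interval from 0.668-fold to 1.75-fold, and it was −0.17 without vehicle replicate 3 and 0.40 without vehicle replicate 2. In limma the 4 probes had Benjamini-Hochberg adjusted p of 0.882 to 0.997.

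Genes that act with the importers were read from lists at each gene's brightest probe. Of 20 other zinc handling genes (the other SLC39 genes, the SLC30 exporters, metallothioneins, Mtf1 and Mtf2), 15 were past the filter, and 0 passed the adjusted threshold in limma while 2 (13.3%) had an unadjusted p under 0.05, against 7.38% of all tested probes. The zinc-induced metallothionein Mt1 read 9.30, 9.33 and 9.13 in NTA rats, against 9.63, 9.31 and 9.49 in vehicle rats, with the groups overlapping. Its log2 difference was −0.22 (SE 0.13), and those of Mt2A, Mtf1 and Mtf2 were −0.18, −0.09 and −0.08. Mt3 and Mt4 were not past the filter.

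The 2 genes with an unadjusted p under 0.05 were Slc39a12 and Slc30a2. Slc39a12, an importer best known from brain, read −3.18, −3.14 and −2.98 in NTA rats, against −3.83, −3.26 and −4.10 in vehicle rats. The lowest NTA rat was above the highest vehicle rat, at a log2 difference of 0.63 (SE 0.22; adjusted p = 0.61 in limma with the Benjamini-Hochberg method). Slc30a2, an exporter that loads zinc into vesicles, read −1.78, −2.38 and −1.07 in NTA rats, against −2.91, −5.44 and −3.41 in vehicle rats on A_42_P663722. Again the groups did not overlap, at a log2 difference of 2.18 (SE 0.68; adjusted p = 0.57 in limma with the Benjamini-Hochberg method), and 2 of 3 vehicle arrays were well above background. Its second probe, well above background on all 3 NTA arrays and no vehicle array, had means of −4.01 with NTA and −6.22 with vehicle. The NTA mean lay 2.34-fold above the lowest signal counted as well above background on vehicle arrays, which bounds the mean and not each rat. Both Slc30a2 probes passed the filter through the NTA arrays alone, which favoured a higher NTA value. The same holds for its place among the 2 genes with an unadjusted p under 0.05. Of the 8 exporters past the filter 3 were above 0, and Slc30a5, the exporter with the next lowest p, which loads zinc into the secretory pathway, was at −0.23 (SE 0.13) on its brightest probe and at −0.0153 and 0.0041 on its others. Of the other importers, Slc39a9 and Slc39a11 had log2 differences of −0.17 and −0.14 on their brightest probes, and Slc39a2 was not past the filter. Groups also did not overlap, with NTA lower, on the brightest probes of Slc39a9, Slc30a5 and the exporter Slc30a1. Slc30a1 was at −0.17 (SE 0.10). These genes, with Slc39a12 and Slc30a2, were the only ones without overlap among the 15 at their brightest probes. Such non-overlap in either direction was found for 13.4% of all tested probes, and with NTA lower for 7.83%. The share among the 15 genes was larger, and it was not tested. The second Slc39a11 probe was at 0.27 (SE 0.11), with groups that did not overlap and a limma adjusted p of 0.67.

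**Figure D4:**
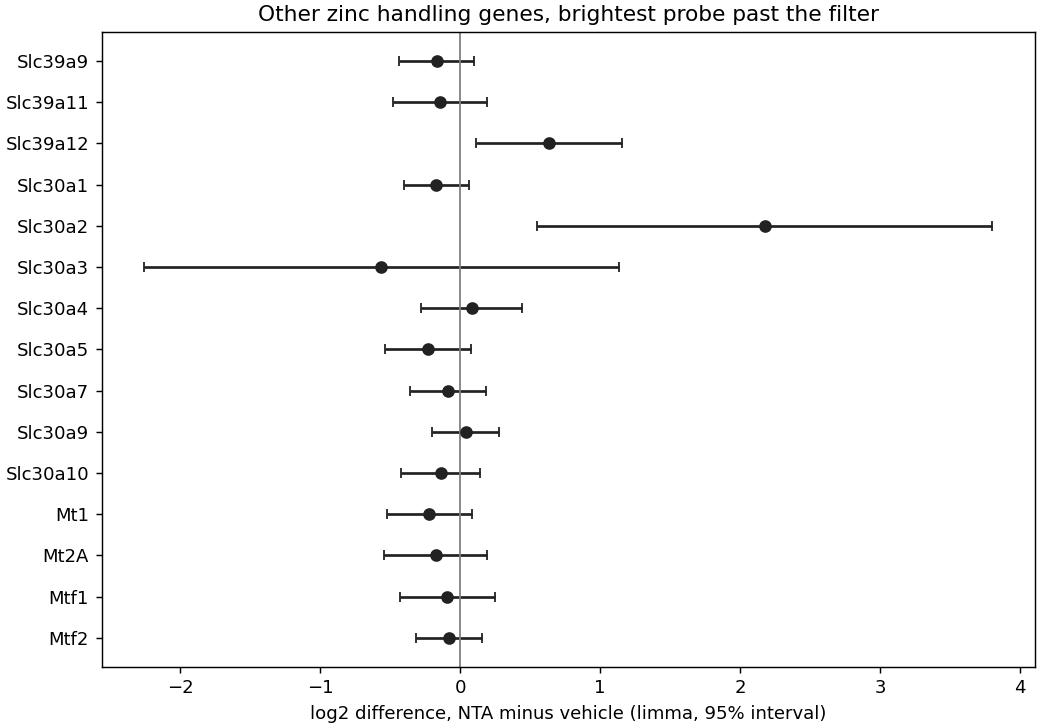
Log2 difference, NTA minus vehicle, with limma's 95% interval for the 15 other zinc handling genes past the filter (n = 3 rats per group). Slc30a2, at 2.18, and Slc39a12, at 0.63, are the only intervals that exclude 0 before adjustment. Of the 15 genes, at 1 probe each, 11 lie below 0, a larger share than the 55.8% of all tested probes.

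Importers of other metals stood near the background as well. Of 9 genes for iron, manganese and copper uptake, 0 passed in limma and 0 had an unadjusted p under 0.05, with a median log2 difference of 0.01. The copper importer Slc31a1, at −0.40 (SE 0.17), and the iron reductase Steap3, at −0.39 (SE 0.17), had the lowest p. Before adjustment these were 0.05004 and 0.057 in limma, so Slc31a1 only just missed the cut. The Slc31a1 groups did not overlap, with NTA lower, as was found in either direction for 13.4% of all tested probes. Of 16 interleukin 6 and acute phase genes, whose pathway induces Slc39a14 in mouse, 0 passed, 2 (12.5%, against 7.38% of all tested probes) had an unadjusted p under 0.05, both lower, and the median was 0.04. The macroglobulin A2m read 0.82, 0.18 and −0.05 in NTA rats, against 1.66, 0.63 and 2.75 in vehicle rats, at −1.36 (SE 0.53), and the fibrinogen chain Fgg was at −0.26 (SE 0.10).

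Of 15 zinc enzymes past the filter, 0 passed and 2 (13.3%, against the same 7.38%) had an unadjusted p under 0.05, with a median of −0.06. Carbonic anhydrase Car2, also abundant in red cells, was at 0.60 (SE 0.13), and the aminopeptidase Anpep at −0.48 (SE 0.13), both with groups that did not overlap. For the 6 genes named from these 3 lists, limma's Benjamini-Hochberg adjusted p was 0.488 to 0.694.

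The named genes whose pattern over the 6 rats was most like that of the bright Slc39a5 probe were Abcc1, a conjugate exporter, Fnbp1, a membrane-bending protein, and Sectm1a. Their Pearson correlations with it were 0.992, 0.987 and 0.983, among 10855 genes compared, of which 28 (0.258%) exceeded 0.95. Abcc1 read −1.19, −1.03 and −1.28 in NTA rats, against −1.54, −1.53 and −1.66 in vehicle rats. These correlations share the same 6 arrays and were picked as the highest of many, so they only describe the arrays.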

How the data were processed

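Liver RNA of 3 NTA and 3 vehicle rats was measured on one-colour Agilent arrays, design 035170. Feature Extraction made the scanner files (10.7 in the submitters' processing notes, 10.7.1.1 in the headers, which name build rn4). Per the file headers, they hold spot intensity on a linear scale, background-subtracted in the processed column, with flags. A series table deposited by the authors gives a linear ratio, that processed signal over the array's 75th percentile (100.0% of probes matched within 0.0001 plus 0.2%), so it is no independent check.

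Processed signals were divided by the array's 75th percentile over 61657 non-control probes and taken as log2, with non-uniform spots set to missing. Probes well above background on all 3 arrays of a group, 38168 in all, were tested in limma 3.58.1 (R 4.3.3; 4 residual and 2.57 prior degrees of freedom), two-sided, adjusted over those probes by Benjamini-Hochberg at a threshold of 0.05. Every probe was a feature. Accessions were matched without version to the RefSeq gene table of GRCr8, which named 27460 probes. Because builds differ, the only coordinates given are those of the printed promoter windows, in GRCr8. In simulated arrays (5 datasets of 38168 features, 100 changed 2-fold and 100 changed 4-fold) 51% of features changed 2-fold and 94.2% of those changed 4-fold were called. The simulated noise was normal and independent, at limma's moderated spreads, with no slide effect. These shares therefore describe the simulation and are not the chance of finding an importer change in these rats.

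The named genes are all importer probes and, per pathway list, up to 4 genes that passed, otherwise the 2 of lowest p, with all other SLC39 genes and metallothioneins; marker lists are given by counts, sums and members below background. The importers, lists and tests were chosen with earlier results of these data known. Normexp (offset 50) used the median spot signal, since the mean is not in the columns used. The number of arrays limits the precision.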

Additional observations from a re-analysis of the deposited data

How the results depend on the processing

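Each of the 8 importers was refitted at its brightest probe under 18 alternatives, which gave 144 values. Of these, 130 kept direction and side of the threshold, 0 passed it, and 14 changed sign, all for Slc39a1, Slc39a6 or Slc39a7 and none by more than 0.083 from 0. Several alternatives, such as the replicate block or another probe filter, changed only the error and left the log2 difference as it was. Scan day as a block, the scan day with both groups alone and leaving out vehicle replicate 3 gave the same fit. The 144 values are therefore not separate checks. Importer probes past the threshold stayed at 0 under every alternative, as did the other zinc handling genes. Averaging a gene's probes turned the sign for Slc39a1 (−0.0183) and Slc39a6 (0.0159), and the Slc39a7 sign turned with normexp (0.0827), quantile normalization (0.0139) and scan day as a block or only the scan day with both groups (0.035). With 1 array left out, the log2 difference ran from −0.0127 to 0.0513 for Slc39a1, −0.0806 to 0.068 for Slc39a6 and −0.085 to 0.0625 for Slc39a7. The median over importer probes was −0.0395 with normexp and −0.0425 to 0.0108 with 1 array left out, lowest without NTA replicate 3. The cause was not tested. Over all probes, limma called 13 (13 higher, 0 lower), 6 to 11 with 1 array left out, 6 without NTA replicate 1 and 7 without NTA replicate 2.

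The labels do not say whether replicate numbers pair the rats. Deviations of same-numbered arrays correlated at 0.158, −0.004 and −0.085, and those of differently numbered arrays at −0.161 to 0.152. With so few arrays these values cannot settle pairing. With the replicate number as a block, 0 probes were called. Slc39a4 then kept its log2 difference of 0.37 with an SE of 0.12 and a limma Benjamini-Hochberg adjusted p of 0.64. Scan day as a block only sets vehicle replicate 3 aside. Probes near background, such as 2 of Slc39a5, bound rather than measure a level.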
